A study of Mus musculus with 4 samples.

Results

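Ring1B and the mark that it makes, ubH2A, were compared by their sequencing reads over the same stretches of the mouse genome. The regions came from the peak lists of the Ring1B and ubH2A libraries. Peaks of these lists that overlapped by at least 1 bp were merged, and the longest peak of a merged region gave its read counts. A region was used where that peak had a listed overlap of 0 percent with the peaks of the input DNA library. This left 11501 of 13667 merged regions, drawn from a series whose 4 lists hold 30047 peaks. The measure was the ratio of Ring1B to ubH2A reads in a region after each count was divided by the size of its library. The library sizes, computed from the listed peaks, were 51.8 M reads for Ring1B, 67.0 M for ubH2A, 53.3 M for Dzip3 and 48.3 M for input DNA.

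All 4 libraries came from E14 mES cells, a mouse embryonic stem cell line of the strain 129/Ola with no genetic change named in the labels. The cells were grown without feeders in 2i + LIF, that is with the MEK inhibitor PD0325901 at 1 µM, the GSK inhibitor CHIR99021 at 3 µM and LIF at 1000 U/ml, and were fixed in 1% formaldehyde for 10 min. The antibodies were raised in rabbits by the study's laboratory, and no library from an unspecific antibody was analysed here. The labels describe shearing with a Picoruptor, while the methods of the study describe micrococcal nuclease for ChIP-seq. With 1 library for each target there is no replicate error, so no p-values are given, and the intervals of counts and shares cover counting error only.

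Ring1B, also called Rnf2, is an E3 ubiquitin ligase and the catalytic core of Polycomb repressive complex 1 (PRC1). It attaches ubiquitin to lysine 119 of histone H2A, and the product is named ubH2A here. In embryonic stem cells PRC1 is known to occupy CpG islands at the promoters of silent developmental regulators, where the mark contributes to repression. Dzip3 is another H2A ubiquitin ligase.

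The sequences of 7 regions are shown first, since base composition and repeats ran through the results that follow. All are taken from mm9, plus strand, 5′ to 3′, and cover up to 300 bases at the middle of the region. The first 3 show the contrast in CpG content between regions on the Ring1B side and a region on the ubH2A side, and capitals mark CG dinucleotides. The Prickle1 region and the chromosome 3 region were among the 5 farthest on their sides, and the T region lies upstream of the gene for Brachyury, a mesoderm transcription factor.
Prickle1 promoter, Ring1B side, chr15:93425741-93426040: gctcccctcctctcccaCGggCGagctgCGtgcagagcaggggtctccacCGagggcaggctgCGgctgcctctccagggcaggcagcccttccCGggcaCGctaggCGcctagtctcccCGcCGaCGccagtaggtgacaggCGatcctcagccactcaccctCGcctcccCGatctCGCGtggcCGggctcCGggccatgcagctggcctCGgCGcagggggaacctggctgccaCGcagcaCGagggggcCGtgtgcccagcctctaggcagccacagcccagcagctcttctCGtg
T promoter, Ring1B side, chr17:8626437-8626736: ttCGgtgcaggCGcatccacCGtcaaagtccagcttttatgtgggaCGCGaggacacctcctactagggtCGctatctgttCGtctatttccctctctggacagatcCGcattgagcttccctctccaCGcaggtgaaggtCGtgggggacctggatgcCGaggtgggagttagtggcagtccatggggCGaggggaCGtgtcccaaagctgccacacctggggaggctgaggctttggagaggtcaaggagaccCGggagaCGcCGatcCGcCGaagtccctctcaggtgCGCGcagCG
Chromosome 3 region, ubH2A side, chr3:127708017-127708316: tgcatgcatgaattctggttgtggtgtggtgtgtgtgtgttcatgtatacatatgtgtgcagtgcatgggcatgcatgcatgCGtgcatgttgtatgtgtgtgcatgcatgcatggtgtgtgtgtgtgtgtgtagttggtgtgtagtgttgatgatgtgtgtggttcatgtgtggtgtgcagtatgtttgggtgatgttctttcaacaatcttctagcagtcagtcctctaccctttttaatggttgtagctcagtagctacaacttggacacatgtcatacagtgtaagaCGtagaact
These windows held 24 CG dinucleotides at Prickle1 and 21 at T, against 2 in the chromosome 3 region. The contrast did not hold in every window shown. Of those that follow, the chromosome 5 repeat on the Ring1B side held 0 and the chromosome 2 region on the ubH2A side 14. The X chromosome region on the Ring1B side held 20 and the repeat near Hhex on the ubH2A side 1.

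The other 4 are paired by shared sequence. In each pair capitals mark bases that lie in a run of 30 bases found, on either strand, in the partner region. The pairs are shown because regions with common sequence lay on opposite sides of the balance.
Chromosome 5 repeat, Ring1B side, chr5:106586540-106586839: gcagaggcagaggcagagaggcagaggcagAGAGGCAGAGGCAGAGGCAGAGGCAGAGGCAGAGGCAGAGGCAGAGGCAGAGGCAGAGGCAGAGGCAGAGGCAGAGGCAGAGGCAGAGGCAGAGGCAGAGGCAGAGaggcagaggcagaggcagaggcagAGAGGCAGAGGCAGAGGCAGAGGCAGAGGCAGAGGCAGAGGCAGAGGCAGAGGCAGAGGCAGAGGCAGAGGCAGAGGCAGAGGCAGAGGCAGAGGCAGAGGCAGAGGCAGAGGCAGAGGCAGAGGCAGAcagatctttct
Repeat near Hhex, ubH2A side, chr19:37519002-37519301: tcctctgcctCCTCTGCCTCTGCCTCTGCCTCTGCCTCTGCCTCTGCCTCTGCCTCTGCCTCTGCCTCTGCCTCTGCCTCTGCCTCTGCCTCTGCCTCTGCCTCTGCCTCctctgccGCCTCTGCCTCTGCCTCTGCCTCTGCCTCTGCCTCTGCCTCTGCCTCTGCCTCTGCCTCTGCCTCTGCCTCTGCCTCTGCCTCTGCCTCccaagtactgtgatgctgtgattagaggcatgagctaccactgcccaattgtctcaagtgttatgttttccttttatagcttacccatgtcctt
Chromosome 2 region, ubH2A side, chr2:47498290-47498587: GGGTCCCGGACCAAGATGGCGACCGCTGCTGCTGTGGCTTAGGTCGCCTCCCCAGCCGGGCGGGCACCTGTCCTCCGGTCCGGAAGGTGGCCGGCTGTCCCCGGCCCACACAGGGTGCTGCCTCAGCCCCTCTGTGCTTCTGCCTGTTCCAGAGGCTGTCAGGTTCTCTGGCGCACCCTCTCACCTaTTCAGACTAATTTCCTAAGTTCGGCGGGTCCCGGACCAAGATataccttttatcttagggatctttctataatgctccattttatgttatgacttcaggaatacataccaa
X chromosome region, Ring1B side, chrX:64478715-64479014: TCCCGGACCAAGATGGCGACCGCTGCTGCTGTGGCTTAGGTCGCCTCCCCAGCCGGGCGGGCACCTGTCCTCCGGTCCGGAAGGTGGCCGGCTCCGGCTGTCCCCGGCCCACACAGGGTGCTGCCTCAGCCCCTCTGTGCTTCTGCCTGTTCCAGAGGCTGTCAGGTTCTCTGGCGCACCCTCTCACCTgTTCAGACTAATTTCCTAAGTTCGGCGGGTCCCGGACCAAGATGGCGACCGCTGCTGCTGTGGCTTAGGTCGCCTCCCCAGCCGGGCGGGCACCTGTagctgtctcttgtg
The first pair is built of the same 6-base unit, read as GCAGAG on one strand and CTCTGC on the other. It shared 6 different runs of 30 bases. The second pair shared 147 different runs of 30 bases.

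Across the 11501 regions the median ratio was 2.31, with the middle 50% of the regions between 0.846 and 5.63. Regions with a ratio of 2 or more are called Ring1B-leaning here and those with a ratio of 0.5 or less ubH2A-leaning. There were 6258 Ring1B-leaning regions, 54.4% of all (95% Wilson interval 53.5 to 55.3), and 1507 ubH2A-leaning regions, 13.1% (12.5 to 13.7). The other 3736 regions lay between these limits. The ubH2A list is not whole on chromosomes 1, 10 and 11, where regions of the ubH2A list only are therefore under-represented. On the other chromosomes, with 9993 regions, the shares were 52.0% and 14.6%. Every leaning region also had an exact (Clopper-Pearson) 95% interval of its ratio on one side of 1. The whole range was wide, from 0.278 at the 5th percentile to 16.3 at the 95th. The ratio compares antibodies that may pull down chromatin with different efficiency, so a value of 1 is not a point of equal occupancy, and only differences between regions can be read.

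The list that a region came from fixes much of its ratio, because a peak is listed where its own library is high. Regions of the Ring1B list only numbered 6664, with a median ratio of 4.82, and 89.0% of them were Ring1B-leaning. Regions of the ubH2A list only numbered 3063, with a median of 0.507, and 48.7% of them were ubH2A-leaning. The 1774 regions of both lists had a median of 1.32, and 18.4% were Ring1B-leaning against 0.789% ubH2A-leaning. These values are a description of the lists. For this reason the contrasts by distance and by CpG content were repeated inside the lists.

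**Figure D1:**
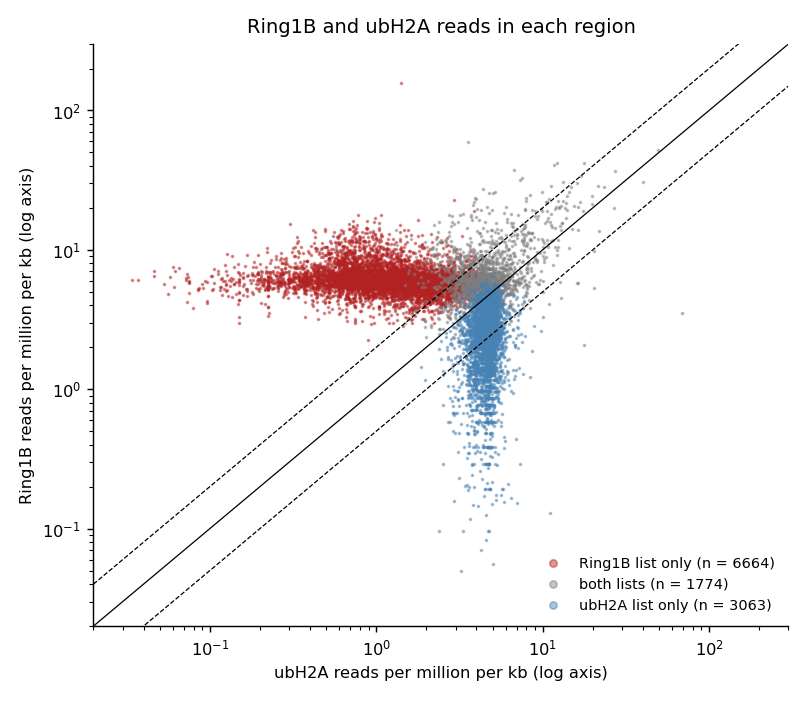
Ring1B reads against ubH2A reads in each of the 11501 regions, in RPM per kb (reads scaled to library size and region length) on log axes, coloured by list, with a count of 0 set at 3 reads; the solid line marks a ratio of 1 and the broken lines ratios of 2 and 0.5. Regions of the Ring1B list only form a flat band with a median Ring1B level of 5.97, and regions of the ubH2A list only an upright band with a median ubH2A level of 4.61.

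Behind the ratio, the library that set the list stayed in a narrow band while the other fell. In the Ring1B list only, the median level in RPM per kb, that is reads scaled to library size and to region length, was 5.97 for Ring1B and 1.27 for ubH2A, beside 0.221 for input. In the ubH2A list only, the median levels were 2.32, 4.61 and 0.514 RPM per kb. In both lists they were 5.94, 4.49 and 0.612 RPM per kb. The plot of both levels shows these as a flat band, an upright band and a cloud around the diagonal. Across the 1774 regions of both lists the rank correlation of the levels was 0.22. All regions lie in the same pair of libraries, and the correlation over all 11501 regions, -0.48, is shaped by how the lists were joined.

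The weaker partner was not at the input level. Summed over the Ring1B list only, scaled ubH2A reads were 4.55 times the input reads, and Ring1B reads were 25.3 times. Summed over the ubH2A list only, Ring1B reads were 3.53 times the input reads and ubH2A reads 6.82 times. Regions were chosen to overlap no input peak, which lowers the input counts in these sums. The 34 regions with a count of 0 in one library were 13 with no Ring1B reads and 21 with no ubH2A reads. For these the ratio was computed with 3 reads, the number that a count of 0 allows.

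**Figure D2:**
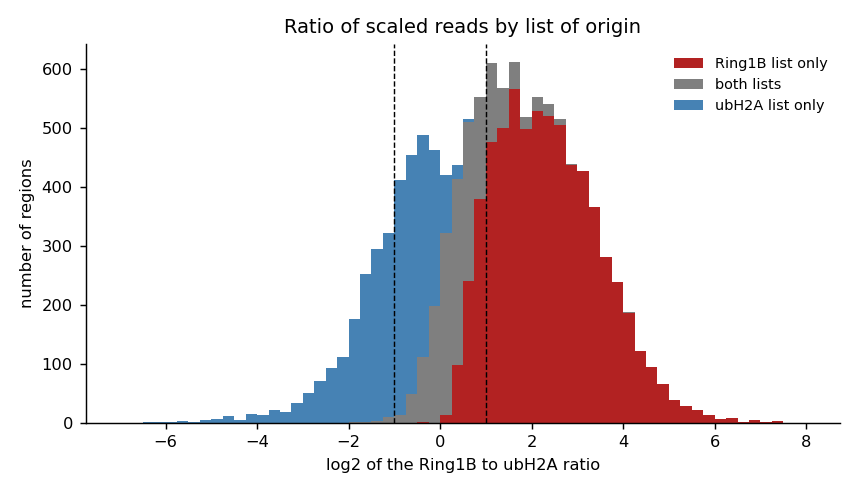
Number of regions by the log2 of the ratio of scaled Ring1B to ubH2A reads, stacked by list, in bins of 0.25; the broken lines mark ratios of 0.5 and 2. Regions of both lists pile up just above a ratio of 1, with a median ratio of 1.32, between the other lists.

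The regions that were left out for their overlap with an input peak had a narrower balance. Their median ratio was 0.923 over 2166 regions, and 4.57% of them were Ring1B-leaning. Just outside the limit, a region on chromosome 4 with 0.452% of its length under an input peak had 68 Ring1B and 75 ubH2A reads, a ratio of 1.17. Just inside, the region with the most input reads, near Muc19, held 143 input reads with 4426 Ring1B and 1340 ubH2A reads, a ratio of 4.28.

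Distance to a transcription start site (TSS) of a protein-coding gene separated the ratios. Every annotated transcript start of such a gene counted as a TSS. A region within 4 kb of one, called a promoter region here, can therefore lie far from the 5′ end of its gene. The 3943 regions within 4 kb of a TSS had a median ratio of 5.67, and 81.0% of them were Ring1B-leaning against 5.93% ubH2A-leaning. The 5737 regions at 4 to 100 kb had a median of 1.61, and the 1821 regions beyond 100 kb had 1.32. The median within 4 kb was therefore 3.70 times the median farther away, a value that does not depend on how the libraries are scaled to each other. Which library moved depended on the scale. The median ubH2A level was 1.12 RPM per kb within 4 kb and 3.64 farther away, whereas the Ring1B level was 6.09 and 5.10. Summed over the regions and set against input, Ring1B reads were 28.8 times the input reads near a TSS and 9.66 times farther away, while ubH2A reads were 5.53 and 6.03 times. The input level was lower near a TSS, at 0.204 RPM per kb against 0.423, and its part in the difference was not tested.

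The difference by distance lay within the Ring1B list and in the makeup of the lists. Of the Ring1B list only, 49.4% lay within 4 kb of a TSS, against 11.0% of the regions of both lists and 14.9% of the ubH2A list only. Within the Ring1B list only, the median ratio was 6.91 near a TSS and 3.32 farther away. Within both lists it was 1.29 for the 196 near regions and 1.33 for the 1578 others. Within the ubH2A list only it was 0.488 and 0.510. Inside the lists that hold ubH2A peaks, the medians near and far from a TSS differed little.

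The 457 regions within 4 kb of a TSS in the ubH2A list only hold a listed ubH2A peak and no listed Ring1B peak. Of them 234 were ubH2A-leaning, 51.2% (Wilson interval 46.6 to 55.8). They were poor in CpG, with 6.56% of them in the CpG-rich class against 62.5% of the near regions of the Ring1B list only. Their median levels were 2.24 RPM per kb for Ring1B and 4.59 for ubH2A.

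CpG content also separated the ratios. A region was called CpG-rich where its GC content exceeded 50% and its observed CpG count exceeded 0.6 of that expected from its bases. The 2890 CpG-rich regions had a median ratio of 6.91, and 91.7% of them were Ring1B-leaning. The 8611 CpG-poor regions had a median of 1.57 and 41.9%. Only 36 CpG-rich regions were ubH2A-leaning, 1.25% of them, against 1471 CpG-poor regions, 17.1%. The ratio of the medians was 4.39. It was 2.35 among regions within 4 kb of a TSS and 3.50 among the others, and the ratio of medians by distance was 2.44 among CpG-poor and 1.64 among CpG-rich regions.

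The CpG-rich promoters stood farthest on the Ring1B side of these classes. Of 2114 CpG-rich regions within 4 kb of a TSS, 2032 were Ring1B-leaning, 96.1%, and 8 were ubH2A-leaning. Their median ratio was 7.77, with median levels of 6.41 RPM per kb for Ring1B and 0.891 for ubH2A. CpG-poor regions at the same distance had a median of 3.30, with levels of 5.72 RPM per kb for Ring1B and 1.75 for ubH2A, and 12.4% of them were ubH2A-leaning. The input level was 0.135 RPM per kb in the CpG-rich class and 0.324 in the CpG-poor class. Summed over the regions, ubH2A reads were 5.87 and 5.28 times the input reads in these classes, while Ring1B reads were 49.0 and 14.0 times. Per kb the classes thus differed mostly in ubH2A, and over input mostly in Ring1B. The part of the lower input level in the ratio was not tested. Inside both lists the CpG contrast was smaller, 1.65 for 100 CpG-rich regions and 1.31 for 1674 CpG-poor regions.

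**Figure D3:**
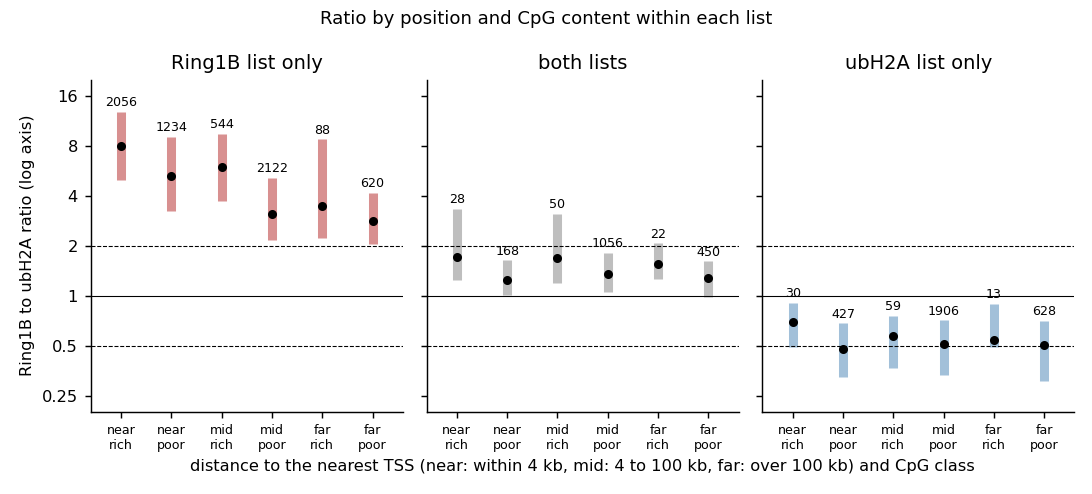
Median ratio of Ring1B to ubH2A reads (point) with the middle 50% of the regions (bar), on a log axis, by distance to a TSS and CpG class within each list; the number of regions stands above each bar. In the Ring1B list only, the median runs from 8.0 for CpG-rich regions near a TSS down to 2.82 for CpG-poor regions beyond 100 kb, while in the ubH2A list only no class has a median above 0.70.

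The length of a listed Ring1B peak comes from the Ring1B reads that also enter the ratio, so its relation to the ratio is a description. Over the Ring1B list the median ratio was 3.14 at the shortest length listed, 200 bp, 3.04 at 300 to 399 bp and 11.3 at 1000 bp or more. Among CpG-rich regions of the Ring1B list the median was 4.89 for the 284 regions of 200 bp and 12.2 for the 310 regions of at least 1000 bp. All of the latter were Ring1B-leaning. Exons of protein-coding genes held 2154 regions with a median ratio of 5.57, and 65.9% of these were CpG-rich. Regions in introns or non-coding transcripts had a median of 2.16 and those outside transcripts 1.65.

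The developmental regulators that PRC1 is known to bind were looked at by family. The families were Hox, other homeobox, Sox and Fox, proneural bHLH, T-box and Gata transcription factors, and the Wnt, Fgf and Bmp ligands. Of 254 annotated genes in these lists, 193 had a region within 4 kb of a TSS, 709 regions in all, beside 2540 of all 22238 annotated protein-coding genes. Of these, 706 were Ring1B-leaning and 0 were ubH2A-leaning, beside 81.0% and 5.93% of all regions within 4 kb of a TSS. Their median ratio was 10.5, against 4.80 for the 3216 promoter regions of no listed gene. This contrast was not repeated inside the lists. The regions of no listed gene held 233 of the 234 ubH2A-leaning promoter regions. They were also shorter, with a median length of 306 bp against 442 bp. The part of the list of origin and of length in the difference was not tested. Among CpG-rich regions alone the medians were 12.2 for 401 regions of the developmental lists and 6.83 for 1703 regions of no listed gene. The median ubH2A level was 0.707 RPM per kb in the developmental lists and 1.30 at the other promoters, and the Ring1B level was 6.72 and 5.98. Several regions of one gene, or of neighbouring genes in a Hox cluster, are not independent, so the counts were also taken by gene. With the reads of its regions summed, each of the 193 genes had a ratio of at least 2. A region near the TSSs of several genes was counted for each of them. Neighbouring genes, as in a Hox cluster, are therefore not independent in this count either. The sums were not taken for all 2540 genes with a promoter region, so this count has no share over all genes beside it. On the chromosomes where both lists are whole, 574 of 577 regions of these families were Ring1B-leaning and 0 were ubH2A-leaning, beside 79.6% and 7.03% of the 3243 promoter regions there.

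The Hox genes, which set position along the body axis, had 118 regions at 32 of 39 genes. All 118 were Ring1B-leaning, with a median of 10.4. The region at the 5′ end of Hoxd11, chr2:74517083-74519428, held 1092 Ring1B reads, 102 ubH2A reads, 73 Dzip3 reads and 53 input reads, a ratio of 13.9 (exact interval 11.3 to 17.2). At Hoxb2, chr11:96213957-96215110, 955 Ring1B reads stood against 68 ubH2A reads, a ratio of 18.2 (14.2 to 23.6). Hoxa10, chr6:52183493-52185098, had 842 against 62, a ratio of 17.6. The lowest Hox region, at Hoxb4, had 83 against 31, a ratio of 3.47 (2.27 to 5.42). The strongest and weakest Hox regions were therefore all on the Ring1B side.

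Other homeobox genes held 365 regions at 80 of 89 genes, and all 365 were Ring1B-leaning with a median of 11.2. Uncx, a regulator of somite patterning, had 1836 Ring1B reads, 124 ubH2A reads, 116 Dzip3 reads and 10 input reads in a region of 2459 bp, a ratio of 19.2 (16 to 23.2). Six2, which maintains nephron progenitors, had 1696 against 74 reads, a ratio of 29.7 (23.5 to 38). Nkx2-1, a lung and thyroid regulator, had 1656 against 103, a ratio of 20.8. The lowest was Pou4f2, a retinal ganglion cell factor, with 126 against 76 and a ratio of 2.15 (1.60 to 2.89). All 4 of these regions were CpG-rich and in the Ring1B list only.

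Sox and Fox genes held 75 regions at 26 of 32 annotated genes, of which 74 were Ring1B-leaning. Foxb2 had the most Ring1B reads, 2162, with 137 ubH2A reads, 105 Dzip3 reads and 16 input reads, a ratio of 20.4 (17.2 to 24.5). The ratios were 17.7 at Foxb1 and 18.8 at Foxd4, which had 1615 and 1368 Ring1B reads. The region outside the limit lay at Sox8, with 75 Ring1B and 53 ubH2A reads and a ratio of 1.83 (1.27 to 2.66). Proneural bHLH genes, which drive neuronal fate, had 32 regions at 16 of 22 genes, all Ring1B-leaning with a median of 11.8. Olig2, a motor neuron and oligodendrocyte factor, had 2040 Ring1B reads, 171 ubH2A reads, 93 Dzip3 reads and 20 input reads, a ratio of 15.4 (13.2 to 18.2). The ratio was 22.2 at Neurod2 and 12.4 at Ptf1a, and lowest at Ascl2, with 81 against 43 reads and 2.44 (1.67 to 3.62).

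All 37 T-box regions at 11 of 15 genes and all 26 Gata regions at 5 of 6 genes were Ring1B-leaning, with medians of 9.10 and 10.3. Tbx1, a pharyngeal arch regulator, had 1207 Ring1B and 98 ubH2A reads in its strongest region, a ratio of 15.9 (13.0 to 19.8), and a weaker region of 81 against 22 reads, 4.77. Gata6, an endoderm factor, had 1075 against 69 reads, a ratio of 20.2 (15.8 to 26.1). Gata2 had 612 against 54 in its strongest region, a ratio of 14.7, and 69 against 34 in its weakest, 2.63. Of 56 regions at 23 of 51 ligand genes, 54 were Ring1B-leaning, with a median of 8.20. The regions counted for Wnt1 differed. Its strongest region, chr15:98621145-98623623, had 1448 Ring1B and 194 ubH2A reads, a ratio of 9.67 (8.32 to 11.3). Another region, in both lists, lies past the 3′ end of the gene, 3.72 kb from the nearest TSS of Wnt1. It had 122 and 136 reads, a ratio of 1.16 (0.902 to 1.49).

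**Figure D4:**
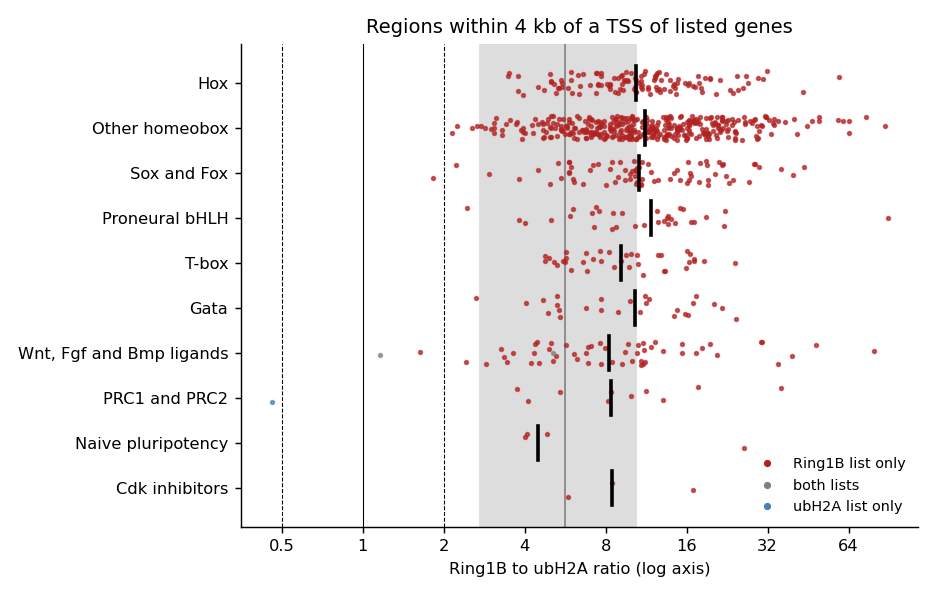
Ratio of Ring1B to ubH2A reads on a log axis for each region within 4 kb of a TSS of a listed gene, coloured by list of origin, with the median of each gene list as a black bar; the grey band is the middle 50% of all 3943 promoter regions and the grey line their median, 5.67. The developmental families lie to the right, with medians from 8.20 to 11.8, and the region at Scmh1, at 0.46, is the only listed one on the ubH2A side.

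The other gene lists are to be read beside the same 2540 of 22238 genes. Of 35 genes for subunits of PRC1 and PRC2, 4 had a promoter region. Cbx8, whose product binds the histone mark of PRC2, had 349 Ring1B against 40 ubH2A reads, a ratio of 11.3 (8.13 to 16.1). Phc2 had 58 against 20 reads, a ratio of 3.76. Scmh1, a PRC1-associated factor, had 22 Ring1B and 62 ubH2A reads, a ratio of 0.46 (0.269 to 0.758), the one ubH2A-leaning region of these lists. This region lies in an exon near the 3′ end of the gene, 0.307 kb from a TSS annotated there, and not at the 5′ end. Of 23 annotated genes of naive pluripotency, Esrrb and Gbx2 had promoter regions, 4 in all, with a median of 4.47. Of 7 Cdk inhibitor genes, Cdkn1c had 3 regions with a median of 8.48. Of the genes for H2A ligases and deubiquitylases and of those for ribosomal proteins, 0 had a region of the set within 4 kb of a TSS.

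Genes named by the study for these assays or as lineage genes were followed in the same way. Neurog1, a proneural factor, had 713 Ring1B, 42 ubH2A, 68 Dzip3 and 6 input reads at its promoter, a ratio of 22.0 (16.1 to 30.8), and a second region of 81 against 21 reads, 4.99. T had 3 regions. The one shown above, chr17:8626286-8626886, had 227 Ring1B and 28 ubH2A reads, a ratio of 10.5 (7.07 to 16.2), and the one beside the TSS had 345 and 24 reads, a ratio of 18.6. Eomes, another mesendoderm T-box factor, had 3 upstream regions with ratios of 16.1, 17.1 and 11.0, the second from 185 Ring1B and 14 ubH2A reads. Shank3, a synaptic scaffold gene, had 2 regions with ratios of 2.87 and 2.77. The nearest regions to Bspry and Stra8, at 31.7 and 67.1 kb, had ratios of 10.2 and 13.1. Those nearest to Acta1, at 11.2 kb, and Rhox6, at 82.9 kb, were ubH2A-leaning, with 25 against 83 reads (0.39) and 24 against 83 reads (0.374). The region taken for Rhox6 has Rhox9 as its nearest gene and shares 47 runs of 30 bases with the chromosome 2 region shown above. Neurod1 and Cdh2 had no region of the set within 100 kb.

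Repeated sequence split the regions in another way. For each region, every run of 30 bases was counted on both strands of the mm9 chromosomes, and the region was called single-copy where at least 90% of these runs occurred once and repeated where under 50% did. By this measure 5927 regions, 51.5%, were single-copy and 4179, 36.3%, were repeated. Single-copy regions had a median ratio of 4.53, with 70.8% Ring1B-leaning and 13.6% ubH2A-leaning. Repeated regions had a median of 1.44, with 35.3% and 12%. The measure was chosen after the sequences had been seen.

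Regions where Ring1B and ubH2A peaks coincided were mostly repeated. Only 9.98% of the 1774 regions of both lists were single-copy and 75.7% were repeated. Single-copy regions made up 65.9% of the Ring1B list only and 44.3% of the ubH2A list only. Among the 5927 single-copy regions, 4392 were in the Ring1B list only, 1358 in the ubH2A list only and 177 in both. The balance itself was little changed by this within the class, with a median of 1.22 for the 177 single-copy regions of both lists against 1.35 for the 1343 repeated ones. The rank correlation of the Ring1B and ubH2A levels was -0.03 in the 177 single-copy regions, beside 0.22 in all 1774 regions of both lists. The regions left out for their overlap with an input peak were repeated in 82.1% of cases. The methods of the study give an approximate ChIP-seq depth in uniquely mapped reads, which is below each of the library sizes computed here. How reads of repeated sequence were treated in the deposited counts is not given in the sources used here, and its part in these ratios was not tested.

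**Figure D5:**
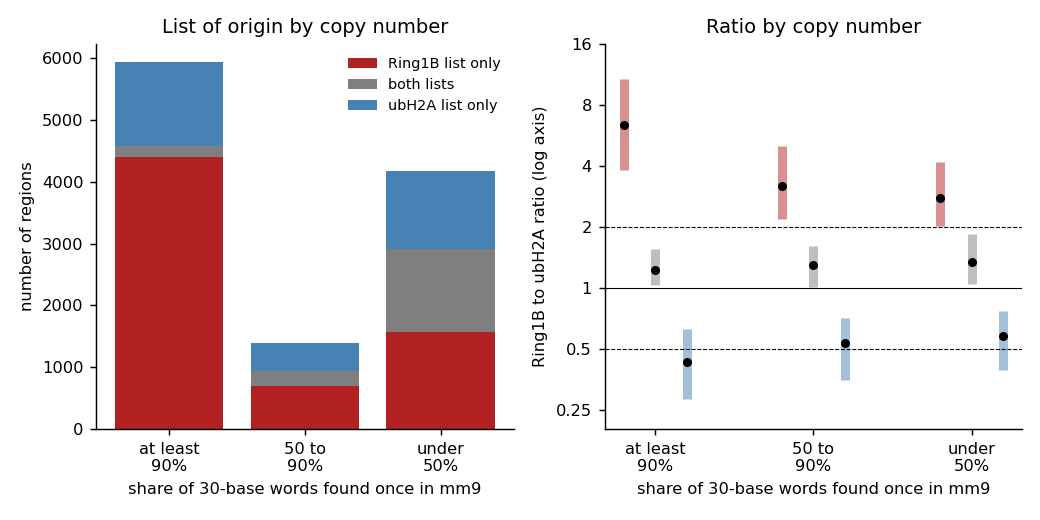
Left, the number of regions by the share of their 30-base runs found once in mm9, stacked by list; right, the median ratio of Ring1B to ubH2A reads (point, log axis) and the middle 50% of the regions (bar) in the same classes and lists. Of the regions with a share of at least 90%, 177 are in both lists, against 1343 of those under 50%, and the Ring1B list only has its highest median, 6.33, in the first class.

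The contrasts by distance and CpG content had the same direction among the single-copy regions. The 3238 single-copy regions within 4 kb of a TSS had a median of 6.77 and the 2689 others 1.97, a ratio of 3.44. The CpG-rich to CpG-poor ratio of medians was also 3.44, from 7.77 over 2441 regions and 2.26 over 3486. Single-copy regions of the ubH2A list only had a median of 0.432, with 59.1% of them ubH2A-leaning, and 19.5% of them lay within 4 kb of a TSS. The median over the developmental lists was 10.5 in this class too.

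Dzip3, whose reads the choice of regions did not use, was most frequent where both lists had a peak. A Dzip3 peak lay in 19.4% of all regions. It lay in 63.0% of the regions of both lists, in 11.1% of the Ring1B list only and in 12.2% of the ubH2A list only. By balance the shares were 12.4% of Ring1B-leaning, 35.5% of the regions between and 8.56% of ubH2A-leaning regions. Within 4 kb of a TSS the share was 5.71%. Copy number moved with this as well: a Dzip3 peak lay in 3.04% of single-copy and 41.0% of repeated regions, and in 25.4% of the single-copy regions of both lists against 1.71% of the single-copy Ring1B list only. At the developmental promoters a Dzip3 peak lay in 0.423% of 709 regions. The median scaled ratio of Dzip3 to input reads was 5.62 in Ring1B-leaning and 3.63 in ubH2A-leaning regions. The input level itself had a rank correlation of 0.43 with ubH2A and -0.23 with Ring1B per kb. In 1270 regions an input count of 0 was set at 3 reads. The Dzip3 level per kb had a rank correlation of 0.48 with ubH2A and -0.05 with Ring1B over all regions. In both lists these were 0.43 and 0.43. Among the single-copy regions they were 0.40 and -0.25 over all 5927, and 0.27 and 0.15 in the 177 of both lists. The part of input in the 2 medians was not tested.

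The regions farthest to each side were ranked by the bound of the exact interval nearest to 1. The first on the Ring1B side, chr5:106586489-106586890, is the chromosome 5 repeat shown above, outside transcripts and 252.6 kb from the TSS of Zfp326. It held 3281 Ring1B reads, 38 ubH2A reads, 2527 Dzip3 reads and 4 input reads, a ratio of 112 (81.3 to 158), and a Dzip3 peak covered 98.8% of it. The next 3 were promoter regions with almost no ubH2A reads. At Kbtbd7 an exon region had 146 Ring1B reads and 0 ubH2A reads, a ratio of at least 50.6 by its exact interval and 63.0 with 3 reads set for 0, although 3.24% of its 30-base runs occurred once in mm9. The region in an intron of Prickle1, a planar polarity gene, had 103 and 0 reads, a ratio of at least 35.5 and 44.5 with 3 reads set for 0, with all of its runs single-copy. Bcl11a, a zinc finger repressor gene, had 192 and 2 reads, a ratio of 124 (34.0 to 1034). Away from promoters, a region 61.0 kb from the TSS of Mrps33 had 138 reads and 1, a ratio of 179 (31.5 to 7109). These 4 regions had 5 to 29 Dzip3 reads and 0 to 5 input reads.

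On the ubH2A side the 5 regions were away from promoters. The chromosome 3 region shown above, chr3:127707976-127708357, 33.3 kb from the TSS of Gm10650, had 0 Ring1B and 179 ubH2A reads, a ratio of at most 0.027 by its exact interval and 0.0217 with 3 reads set for 0. A region on chromosome 18, 2079 kb from the nearest TSS, had 0 and 114 reads, a ratio of at most 0.0426 and 0.0341 with 3 reads set for 0. The chromosome 2 region shown above, 1171 kb from the TSS of Acvr2a, had 2 and 221 reads with 6 Dzip3 and 2 input reads, a ratio of 0.0117 (0.0014 to 0.0428). The repeat near Hhex, chr19:37518985-37519317, had the most reads, 61 Ring1B and 1539 ubH2A, with 46 Dzip3 and 10 input reads, a ratio of 0.0513 (0.0391 to 0.0663). Each of the 5, of which 4 are described here, was in the ubH2A list only, and none overlapped a Dzip3 peak.

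The repeat near Hhex and the one on chromosome 5 lay at opposite ends although both consist of the unit GCAGAG or its complement. Only 233 bp from the former, a region in both lists shared 111 runs of 30 bases with it and held 392 Ring1B, 104 ubH2A, 865 Dzip3 and 1 input reads, a ratio of 4.88. These repeats shared only 6 different runs with each other. The counts that follow take regions sharing at least 20 different runs, so neither repeat is counted for the other. Other regions that share little beyond this unit are left out as well. The chromosome 5 repeat shared at least 20 runs with 23 other regions. Of these, 20 were Ring1B-leaning, 1 lay between and 2 were ubH2A-leaning, with a median ratio of 4.22. The ubH2A-leaning ones were the regions whose nearest genes are Six3, with 50 Ring1B and 548 ubH2A reads (0.118), and Gdnf, with 38 and 226 reads (0.218). The repeat near Hhex shared at least 20 runs with 8 other regions. Of these, 7 were Ring1B-leaning, 1 lay between and 0 were ubH2A-leaning, with a median ratio of 3.90. Runs that repeat on a unit of at most 12 bases over 40 bases or more were found in 675 regions. Of these, 501, 74.2%, were Ring1B-leaning and 15 ubH2A-leaning, beside 54.4% and 13.1% of all regions.

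The same held for the second pair. The chromosome 2 region, at 0.0117, shared at least 20 runs with 115 other regions, whose ratios ranged from 0.0336 to 16.7 with a median of 2.02. Of these, 59 were Ring1B-leaning, 48 lay between and 8 were ubH2A-leaning. The X chromosome region, chrX:64478711-64479017, had 940 Ring1B, 73 ubH2A, 727 Dzip3 and 0 input reads, a ratio of 16.7 (13.1 to 21.5). Regions that share sequence thus spread over most of the range of the balance in these libraries.

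Of the 5 regions of both lists with the most scaled reads per kb, 3 were between the limits, and all 5 overlapped a Dzip3 peak. An intron region of Magi2, chr5:19464859-19465136, had 745 Ring1B, 918 ubH2A, 408 Dzip3 and 6 input reads, a ratio of 1.05 (0.953 to 1.16). An intron region of Dyrk4 had 453, 762, 742 and 14 reads of the same libraries, a ratio of 0.77 (0.684 to 0.866). A region 26.4 kb from Nrsn1 had 529, 506, 560 and 2 reads, a ratio of 1.35 (1.20 to 1.53). The others were the X chromosome region above and a region 32.5 kb from Gm14744, also on X, with 538 Ring1B and 292 ubH2A reads, 2.39. In none of these 5 did more than 15.9% of the 30-base runs occur once in mm9. The 329 regions on the X chromosome had a median ratio of 1.07, beside 2.20 for autosomes on which both lists are whole, and 86.9% of the X regions were repeated against 35.3% of the autosomal ones.

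Neighbouring regions mostly leaned the same way. Of 2037 neighbouring pairs separated by at most 1 kb, both regions leaned in 1538, and 1514 of these leaned to the same side. Over all regions 6258 were Ring1B-leaning and 1507 ubH2A-leaning, so many pairs would agree whatever their distance. Neighbouring regions of 1 gene are also not independent. For pairs up to 20 kb apart the count was 2291 of 2506. At most 1 kb apart, 24 pairs held one region of each side. At Uckl1, chr2:181304204-181304411 had 59 Ring1B and 28 ubH2A reads, a ratio of 2.73, and 146 bp away, beside the TSS, a region had 8 and 70 reads, 0.148. At Fasn, the fatty acid synthase gene, regions 181 bp apart and about 7 kb from the TSS had 66 and 12 reads, a ratio of 7.12, and 5 and 67 reads, 0.0966. About 48 kb from the TSS of Prune2, regions 326 bp apart had 68 and 4 reads, a ratio of 22.0, and 16 and 60 reads, 0.345. These pairs were picked after their values were seen.

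Short motifs were searched for on both strands in windows of 300 bp at the middle of each region. The run CGCGCG was found in 6.73% of all windows, in 11.3% of Ring1B-leaning and in 0.73% of ubH2A-leaning ones. Among CpG-rich windows the shares were 24.3% and 8.33%, the latter 3 of 36. The E2F core TTCCCGC was found in 2.91% of all windows, in 4.54% of Ring1B-leaning and in 0.995% of ubH2A-leaning ones. Among CpG-rich windows these shares were 7.51% and 5.56%, the latter 2 of 36. The CA repeat CACACA, which can overlap itself, went the other way, with 39.8% of all windows, 32.8% of Ring1B-leaning and 53.9% of ubH2A-leaning ones. In single-copy windows it was found in 26.0% of Ring1B-leaning regions, 63.0% of the regions between and 60.8% of ubH2A-leaning ones. The E-box CACGTG was found in 8.53% of all windows, 8.58% of Ring1B-leaning and 9.95% of ubH2A-leaning ones. In single-copy windows its shares were 9.55% of Ring1B-leaning, 16.8% of the regions between and 13.8% of ubH2A-leaning ones. GAGAGA and TTAGGG differed little, with 20.2% and 6.94% of Ring1B-leaning against 17.8% and 6.10% of ubH2A-leaning windows, beside 18.9% and 6.69% of all windows. In CpG-rich windows CACACA was found in 18.6% of Ring1B-leaning and 38.9% of ubH2A-leaning regions, the latter 14 of 36. A match is a description and not a binding site.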

How the data were processed

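The authors aligned reads to mm9 with the Illumina Analysis Pipeline, allowing 1 mismatch, and called peaks library by library in the Partek Genomics Suite, where the FDR was set to 0.1. Their deposited lists give, for each peak, the largest number of extended reads and the total reads of each library as a raw count. They also give the height in RPM, which the authors scaled to library size, a p-value and a scaled ratio (fold) against input DNA, and the percent of the peak under the peaks of other libraries. The p-value was used only to rank peaks for 1 alternative, and the authors' ratio was not used.

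Library sizes were computed as extended reads over RPM. Rows with other than 18 columns were left out, 1 each in the ubH2A and input lists. The ubH2A list is therefore not whole on chromosomes 1, 10 and 11, where a Ring1B peak's overlap with ubH2A peaks was taken from the listed percentages. No groups were tested, since each target has 1 library. A ratio carries an exact 95% interval from its 2 counts. Positions are as listed, with starts read as 0-based for sequences, which are printed 1-based. Genes and TSSs come from GENCODE M1, which is on mm9.

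The regions, gene lists and limits were chosen with earlier results of these data known. Named are the 5 regions farthest to each side by the exact interval, with at least 100 reads, the 5 regions of both lists with most reads per kb, up to 3 genes with most Ring1B reads and the gene of the lowest ratio per gene list, and genes the study names. Of these, 1 region and 1 gene are not reported here. Alternatives changed the chromosomes, merging, input filter, peak strength, low counts, scaling, input subtraction, a pseudocount, fold limits and distances. Functions were tested on simulated peaks, where 600 of 600 planted overlaps were found. Versions were Python 3.11.15, scipy 1.17.1, pandas 2.3.3, numpy 2.4.6, pysam 0.24.0, numba 0.67.0 and matplotlib 3.10.9.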

Additional observations from a re-analysis of the deposited data

How the results depend on the processing

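No paired analysis was possible because every target has only a single library. A value was taken to have moved where it left the exact interval at the group's median counts, the Wilson interval of a share, or a factor of 1.5 for a count; values not given here stayed within these limits, though a ratio of medians cannot move with library scaling, and asking that every peak of a region be free of input overlap changed none of the values. The shares of Ring1B-leaning and ubH2A-leaning regions were 52.0% and 14.6% on chromosomes where both lists are whole, 49.7% and 11.6% with no merging, 34.4% and 4.03% at a fold of 4, and 62.2% and 19.1% at a fold of 1.5. Ratios centred on the regions of both lists gave 46.2% and 19%. Scaling to reads in input peaks gave 58.5% and 10.6%, with a median of 2.67 over all regions and 6.57 within 4 kb of a TSS. Subtracting input reads, which leaves 10850 regions, gave 56.6% and 14.6%, with 6.39 within 4 kb. The stronger 50% of each list, 6948 regions, gave 57.8% and 14.3% and medians of 2.86 over all regions, 6.61 in the Ring1B list only and 6.80 within 4 kb. A limit of 1 kb gave 6.57 near a TSS.

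The ratio of medians near and far from a TSS turned within the regions of both lists, to 0.977, and of the ubH2A list, to 0.90, where the CpG contrast was 1.25 and 1.35. Single-copy regions alone, an alternative chosen after seeing the data, gave medians of 4.53 over all regions, 6.33 in the Ring1B list only, 6.77 within 4 kb and 1.97 farther away, and 70.8% Ring1B-leaning. The cause of these changes was not tested. No variation between cultures or antibodies can be given, and the height at which a peak is listed, at least 31 extended reads for Ring1B and 32 for ubH2A, limits which regions enter.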
